A study of Homo sapiens with 4 samples.

Results

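The genes described here encode the chaperones and folding factors of the endoplasmic reticulum (ER), a partner of ER-associated degradation, and XBP1, all of which are known targets of the XBP1 and ATF6 branches of the unfolded protein response. They were chosen by name, as every probe set annotated with a single one of the symbols HSPA5, HSP90B1, CALR, PDIA4, PDIA6, SDF2L1, DNAJB9, DNAJC3, HERPUD1 and XBP1. All 10 were found among the 18417 genes measured in the series, each with 1 probe set. All 10 lay above the floor of a log2 intensity of 4.84 that was set for counting, as did 12900 of the 18417. The cells were Caco-2, a human cell line from a colorectal adenocarcinoma whose confluent cultures resemble absorptive enterocytes. The 4 groups had 1 array each: collagen-coated Transwell inserts with 2 mM cholate, Transwell inserts with vehicle, regular 6-well plates with 2 mM cholate, and plates with vehicle. Exposure lasted 3 h, cholate, a primary bile acid given as its sodium salt, was put into the apical compartment of the inserts, and each array held RNA pooled from 3 samples. The cholate solution was a HEPES-buffered saline free of calcium, and the make-up of the vehicle is not given in the sources. The sample labels give 21 days of differentiation throughout, whereas the growth protocol gives 14 days for plates and 14 to 21 days for inserts, so that support and culture age cannot be told apart.

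The ER folds secreted and membrane proteins. When unfolded proteins build up in it, sensors in its membrane start the unfolded protein response. The sensor IRE1 has XBP1 mRNA spliced into a form that encodes an active transcription factor, and ATF6 is cut in the Golgi so that its cytosolic part can enter the nucleus. Both raise chaperones, folding enzymes and degradation factors, while the sensor PERK slows translation and acts through ATF4 and CHOP. Intestinal epithelium makes and secretes much protein, and work in mice has shown XBP1 to be needed there by secretory Paneth cells. The array measured the sum of XBP1 transcripts through 1 probe set, and its splicing was not measured here.

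No gene of the set was 1.5-fold apart between cholate and vehicle on either support, where few genes of any kind were (1.09% on Transwell and 3.84% on the plate), and the classical ER chaperones stood close to their vehicle levels. HSPA5, HSP90B1, CALR, PDIA6 and DNAJC3 all differed by at most 0.10 log2 units. The co-chaperone gene DNAJB9 was the exception in size on Transwell, at 1.36-fold of vehicle, and stood at 1.17-fold on the plate. XBP1, also above vehicle on both, stood at 1.11-fold and 1.08-fold. On the plate PDIA4 was the farthest below vehicle, at 0.864-fold, a log2 difference of -0.21 beside 0.23 for DNAJB9. It stood at 0.972-fold on Transwell. DNAJB9 and XBP1 had the largest differences between supports, with less RNA on Transwell than on plates in both treatments. None of these differences passed the test across the 4 arrays after adjustment.

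Promoter sequences are shown for the genes that differed most and for HSPA5, the gene from which the ER stress response element is best known. ATF6 binds the CCACG end of this element while NF-Y holds the CCAAT end, and XBP1 can bind there too. Windows of 300 bases, from 250 before to 50 after the annotated start of each gene, were taken from RefSeq on GRCh38.p14, and all 10 genes matched, with 13 windows in all because 3 genes have an additional start. Both strands were searched for the ER stress response element (CCAAT, 9 bases of any kind, CCACG), for its shorter form (ATTGG, 1 base of any kind, CCACG), which shares the CCACG end, and for the XBP1 motif TGACGTGG. Capitals mark a match to any of them, written 5′ to 3′ on the gene's strand.
HSPA5, chr9:125241294-125241593, minus strand: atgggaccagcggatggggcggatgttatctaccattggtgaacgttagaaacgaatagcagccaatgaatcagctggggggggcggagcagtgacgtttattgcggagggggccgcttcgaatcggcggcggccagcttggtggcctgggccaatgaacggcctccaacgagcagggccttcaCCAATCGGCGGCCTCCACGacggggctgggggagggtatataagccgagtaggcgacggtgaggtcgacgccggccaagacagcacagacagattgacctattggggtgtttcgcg
XBP1, chr22:28800520-28800819, minus strand: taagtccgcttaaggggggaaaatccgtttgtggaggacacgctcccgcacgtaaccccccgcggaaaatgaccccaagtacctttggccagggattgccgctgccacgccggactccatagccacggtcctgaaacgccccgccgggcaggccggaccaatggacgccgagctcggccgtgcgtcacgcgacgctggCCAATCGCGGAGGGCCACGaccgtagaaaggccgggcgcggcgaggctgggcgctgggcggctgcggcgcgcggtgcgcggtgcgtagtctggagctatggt
DNAJB9, chr7:108569624-108569923, plus strand: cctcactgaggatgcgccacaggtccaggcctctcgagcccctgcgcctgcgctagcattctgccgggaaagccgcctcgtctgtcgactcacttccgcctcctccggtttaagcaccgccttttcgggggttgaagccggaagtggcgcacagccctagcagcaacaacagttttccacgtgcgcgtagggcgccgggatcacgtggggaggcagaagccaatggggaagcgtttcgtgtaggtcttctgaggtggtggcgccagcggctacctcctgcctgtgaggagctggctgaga
The XBP1 element begins 52 bases before the start and that of HSPA5 begins 66 bases before it. XBP1 and PDIA6 each have 2 windows, and 1 of the 2 holds none of the motifs. The DNAJB9 window, from the gene with the largest differences, holds none of the motifs, which says only that these letters are not in this window.

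The elements in the other windows are given because they show how widely the set carries the same letters. HSP90B1 holds a pair of them, and the second, like that of CALR, runs on the opposite strand and so begins with CGTGG.
HSP90B1, chr12:103930216-103930234, gene on the plus strand: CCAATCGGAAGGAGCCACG
HSP90B1, chr12:103930321-103930339, gene on the plus strand: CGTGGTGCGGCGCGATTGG
CALR, chr19:12938384-12938402, gene on the plus strand: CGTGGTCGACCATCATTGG
PDIA6, chr2:10812853-10812871, gene on the minus strand: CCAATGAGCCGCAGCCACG
The shorter form was found in SDF2L1, on the opposite strand, and in HERPUD1.
SDF2L1, chr22:21642114-21642124, gene on the plus strand: CGTGGACCAAT
HERPUD1, chr16:56932025-56932035, gene on the plus strand: ATTGGGCCACG
The long element was present in 5 of the 13 windows, from 5 of the 10 genes, and in 27 of 35116 windows of all genes (0.0769%). The shorter form was present in 2 of the 13 windows, from 2 of the 10 genes, and in 19 of all windows (0.0541%). The XBP1 motif was present in 0 of the 13 windows and in 0.729% of all. The element was defined on promoters of this kind, among them that of HSPA5, so its presence is no finding of these data. PDIA4 and DNAJC3 had no match, like DNAJB9. The genes with the long element were XBP1, higher in cholate by 0.15 log2 units on Transwell and 0.12 on the plate, and HSPA5, HSP90B1, CALR and PDIA6. These last differed by at most 0.09. A link between the element and the cholate values was not tested.

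The next values are log2 intensities as the authors normalized them, and each is 1 array with no replicate. A level can be compared between arrays for the same gene, but not between genes, because probe sets differ in how brightly they hybridise. Where the arrays of the supports are said not to overlap, this was not tested. How many of all genes are split by support in this way was not counted. HSPA5 encodes BiP, the ER Hsp70 that binds unfolded chains and holds the sensors inactive. It read 12.15 in cholate and 12.15 in vehicle on Transwell, and 12.32 in cholate and 12.39 in vehicle on the plate. Both Transwell arrays were lower than both plate arrays, and the cholate differences were 0.01 on Transwell and -0.07 on the plate. HSP90B1, the ER Hsp90 known as GRP94, read 12.66 in cholate and 12.63 in vehicle on Transwell, and 12.61 in cholate and 12.66 in vehicle on the plate. Its range over the 4 arrays was 0.06, the narrowest of the 10 genes. CALR encodes calreticulin, the soluble lectin chaperone that binds calcium and newly glycosylated proteins. It read 10.90 in cholate and 10.96 in vehicle on Transwell, and 11.06 in both on the plate, so the Transwell arrays were again the lower ones.

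PDIA4 and PDIA6 are protein disulfide isomerases, which make and rearrange disulfide bonds. PDIA4 read 10.92 in cholate and 10.96 in vehicle on Transwell, and 10.65 in cholate and 10.86 in vehicle on the plate. The plate cholate array was the low one of the 4, at -0.21 against plate vehicle, which was the most negative cholate difference of the set. PDIA6 read 12.92 in cholate and 12.96 in vehicle on Transwell, and 12.88 in cholate and 12.98 in vehicle on the plate. Each cholate array was slightly lower than its vehicle array, by 0.04 and 0.09, and the supports overlapped. SDF2L1 encodes an ER protein that works with BiP and its J-domain partners. It read 7.80 in cholate and 7.92 in vehicle on Transwell, and 7.61 in cholate and 7.65 in vehicle on the plate. In contrast to HSPA5, both Transwell arrays were higher than both plate arrays.

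DNAJB9 and DNAJC3 are ER J-domain co-chaperones that stimulate the ATPase of BiP. DNAJB9, also called ERdj4, is a target of spliced XBP1 and represses IRE1. It read 8.37 in cholate and 7.93 in vehicle on Transwell, and 8.81 in cholate and 8.57 in vehicle on the plate. The supports did not overlap, cholate was the higher array on each, and the Transwell vehicle array was the lowest of the 4. DNAJC3, also called p58IPK and known as an inhibitor of PERK, read 9.30 in cholate and 9.35 in vehicle on Transwell, and 9.44 in cholate and 9.54 in vehicle on the plate. Its supports did not overlap either, but cholate was the lower array on each.

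HERPUD1 encodes a membrane protein of the complex that exports misfolded proteins for degradation. It read 11.67 in cholate and 11.76 in vehicle on Transwell, and 11.98 in cholate and 11.92 in vehicle on the plate. The supports did not overlap, and the cholate difference was -0.09 on Transwell and 0.06 on the plate. XBP1 read 11.25 in cholate and 11.10 in vehicle on Transwell, and 11.59 in cholate and 11.47 in vehicle on the plate. Its 4 arrays fell in the same order as those of DNAJB9, from Transwell vehicle through Transwell cholate and plate vehicle to plate cholate. The neighbouring steps in this order were 0.15, 0.22 and 0.12 for XBP1. The limma standard error (SE) of 0.09 is for an effect averaged over 2 pairs of arrays. A single step, between 2 arrays, is less certain than that. No neighbours could be tested with 1 array each.

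**Figure D1:**
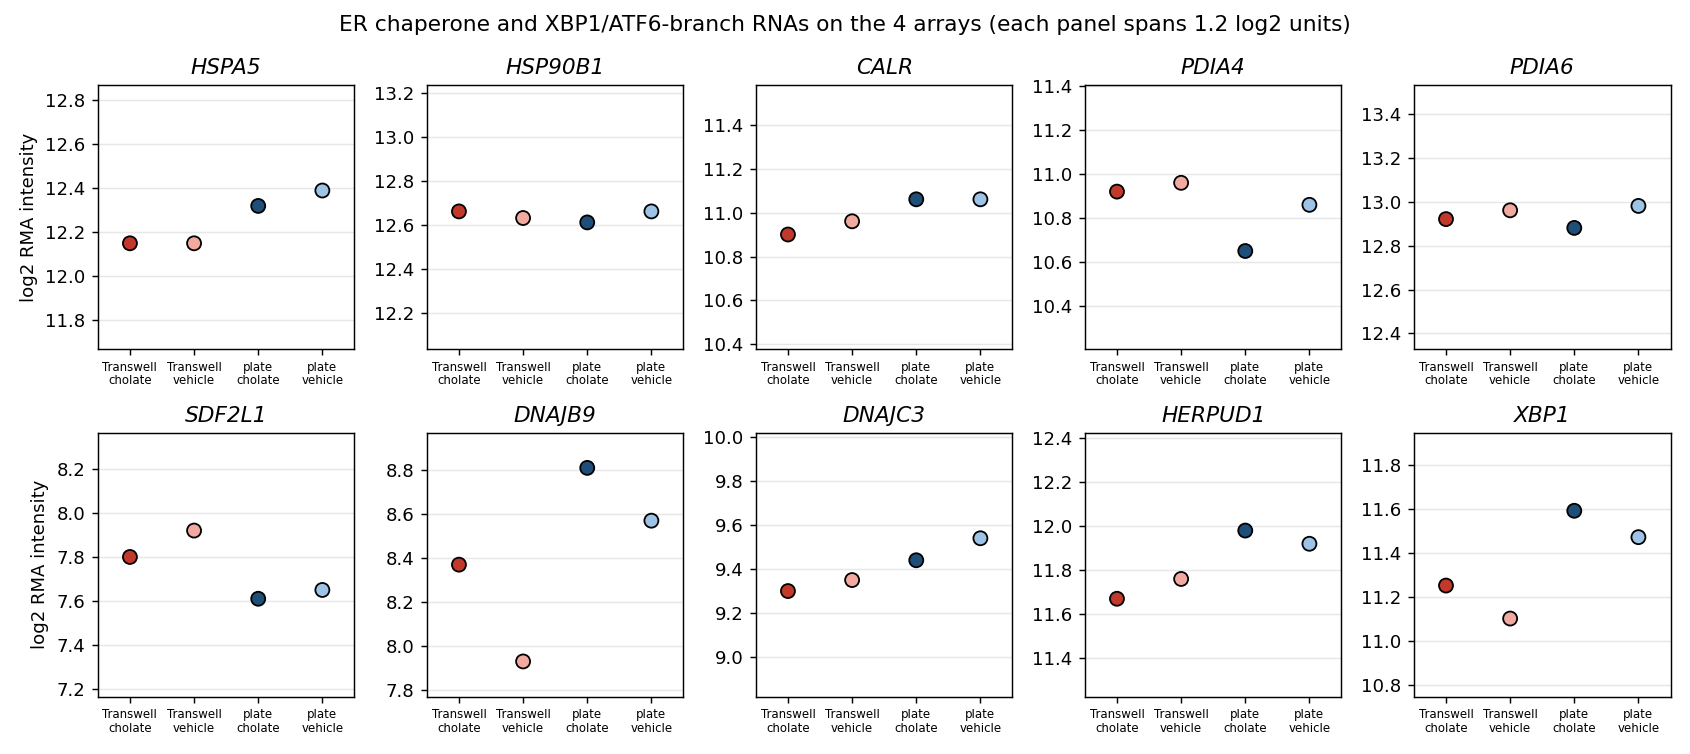
Log2 RMA intensity (y axis) of the 10 genes on the 4 arrays (x axis, 1 point per array, no error bars because there is 1 array per group), each panel spanning the same 1.2 log2 units. DNAJB9 ranges over 0.88 and XBP1 over 0.49, while HSP90B1 ranges over 0.06 and PDIA6 over 0.09.

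The first question was how the set answered cholate on each support, 2 contrasts that share no array. On Transwell 0 of 10 genes were at least 1.5-fold apart, where 1.09% of the 12900 genes above the floor were. On the plate the count was also 0 of 10, against 3.84% of all genes. At the smaller step of 1.2-fold, a log2 difference of 0.263, 1 gene was higher on Transwell (DNAJB9, against 4.71% of all genes) and 0 were higher or lower on the plate, where 23.2% of all genes were that far apart in either direction. Of the 10, 9 stayed under 1.2-fold on both supports, as did 71.7% of all genes. The median cholate difference of the set was -0.04 on Transwell and -0.05 on the plate, against medians of -0.01 and -0.03 over all genes above the floor.

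DNAJB9 was higher in cholate by 0.44 on Transwell and 0.23 on the plate. Differences at least as high were found in 1.01% of genes on Transwell and 11.0% on the plate. Its mean over the supports was 0.34 with a limma SE of 0.10, an unadjusted p of 0.0313 and an adjusted p of 0.443. XBP1 was higher by 0.15 on Transwell and 0.12 on the plate, where 14.0% and 24.0% of genes were at least as high, with a mean of 0.13, an SE of 0.09 and a limma adjusted p of 0.608. In this limma fit, an additive model of support and treatment, 0 of the 10 genes passed at an adjusted p of 0.05 for cholate. Of the 10, 1, DNAJB9, had a limma unadjusted p under 0.05. In the direction of higher, so did 384 of the 12900 genes above the floor and 6.31% of all probe sets. No probe set of the 19978 passed for cholate, the smallest adjusted p being 0.312, nor for support, where it was 0.0858, so that missing the threshold does not show a gene to be unmoved. The SE comes from the disagreement between the supports and from the spread of all genes, not from repeated cultures.

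The other 8 genes had mean cholate differences of -0.13 to -0.01, with limma SEs of 0.09 to 0.10 and adjusted p of 0.659 to 0.979. CALR, PDIA4, PDIA6, SDF2L1 and DNAJC3 were lower in cholate on both supports, the CALR difference on the plate being under 0.01. HSPA5 and HSP90B1 were on opposite sides of 0 on the supports, as was HERPUD1. In all, 5 of 10 genes were lower on both supports and 2 higher on both, against 34.7% and 26.1% of all genes.

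The signed cholate difference on Transwell minus that on the plate was 0.21 for DNAJB9, which was higher in cholate on both supports. It was 0.17 for PDIA4, which was lower in cholate by less on Transwell (0.04) than on the plate (0.21), and -0.15 for HERPUD1, whose sign differed between the supports. These differences of responses use all 4 arrays and were not tested. Over the set they ran from -0.15 to 0.21 with a median of 0.05, against 0.02 over all genes.

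**Figure D2:**
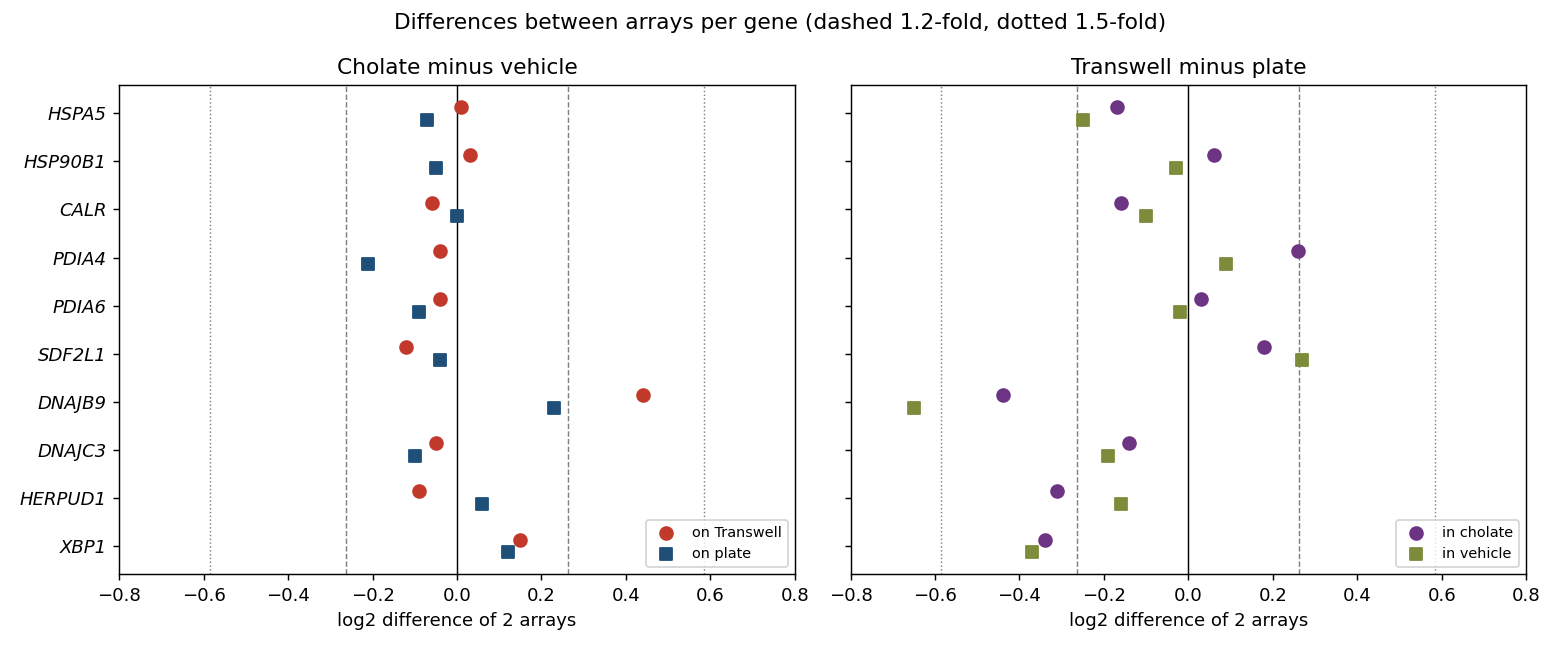
Log2 differences of 2 arrays (x axis) for each gene (rows), with cholate minus vehicle on Transwell (circles) and on the plate (squares) at left, and Transwell minus plate in cholate (circles) and in vehicle (squares) at right. Dashed lines mark 1.2-fold and dotted lines 1.5-fold; for cholate DNAJB9 at 0.44 on Transwell passes a dashed line, and for support DNAJB9 in vehicle at -0.65 passes a dotted one.

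The second question was how the set differed between Transwell and plate, once in cholate and once in vehicle. In cholate 0 of 10 genes were at least 1.5-fold apart, against 7.77% of all genes. In vehicle 1 gene, DNAJB9, was at least 1.5-fold lower on Transwell, as were 3.16% of all genes, and 0 were higher (1.93%). At 1.2-fold, DNAJB9, XBP1 and HERPUD1 were lower in cholate (15.4% of all genes) and DNAJB9 and XBP1 in vehicle (13.4%). PDIA4 was 1.2-fold higher in cholate, as were 20.0% of all genes, and SDF2L1 1.2-fold higher in vehicle, as were 14.2%. The median of the set was -0.15 in cholate and -0.13 in vehicle, against 0.02 over all genes in each treatment.

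DNAJB9 stood at 0.739-fold of the plate in cholate and 0.638-fold in vehicle, log2 differences of -0.44 and -0.65. Its mean was -0.54 with a limma SE of 0.10, an unadjusted p of 0.00668 and an adjusted p of 0.126. With fewer probe sets tested the limma adjusted p was 0.0472 (the brightest 40 percent) and 0.0277 (those with 1 gene symbol), so the call depends on what was tested. In these fits 3.41% and 5.74% of all probe sets passed in the direction of lower, against 0 of 19978 in either direction above. XBP1 stood at 0.79-fold in cholate and 0.774-fold in vehicle, log2 differences of -0.34 and -0.37, with a mean of -0.36, an SE of 0.09 and a limma adjusted p of 0.155. Over all probe sets 0 of 10 genes passed for support, and 2, DNAJB9 and XBP1, had a limma unadjusted p under 0.05. In the direction of lower, so did 1411 of the 12900 genes above the floor and 10.5% of all probe sets. The Transwell vehicle array, where both genes were lowest, enters both the cholate difference on Transwell and the support difference in vehicle, and its part in these results was not tested.

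HSPA5 was lower on Transwell by 0.17 in cholate and 0.25 in vehicle, with a limma mean of -0.21, an SE of 0.09 and an adjusted p of 0.27. HERPUD1 differed by -0.31 and -0.16, DNAJC3 by -0.14 and -0.19 and CALR by -0.16 and -0.10, in cholate and in vehicle. SDF2L1 went the other way, at 0.18 and 0.27, as did PDIA4 at 0.26 and 0.09. HSP90B1 and PDIA6 lay within 0.06 of the plate in both treatments. So the set did not move as a block with the support, 6 of 10 genes being lower and 2 higher on Transwell in both treatments, against 33.2% and 39.5% of all genes. In bulk RNA of this kind, fewer cells of a type and less RNA per cell cannot be told apart.

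The rest of the pathway was read from lists of named genes. The sensors and their processing factors, 9 of 11 of which were measured above the floor, had cholate medians of 0.00 on Transwell and 0.02 on the plate. On either support 0 of them were 1.5-fold apart, beside 1.09% and 3.84% of all genes. EIF2AK3, which encodes PERK, was higher by 0.17 on Transwell and 0.02 on the plate. RTCB, the ligase that rejoins spliced XBP1 mRNA, was at 0.02 and -0.31, and the transcription factor gene CREB3 at -0.11 and -0.13. For Transwell minus plate, MBTPS2, a protease that cuts ATF6, was at -0.31 in cholate and -0.32 in vehicle, and CREB3L2, a relative of ATF6, at -0.34 and -0.15, whereas RTCB was higher, at 0.48 and 0.14.

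Other ER chaperones and folding enzymes, 19 of 22 above the floor, had cholate medians of -0.01 on Transwell and -0.06 on the plate, and 0 of the 19 were higher on both supports while 7 were lower on both, beside 26.1% and 34.7% of all genes. CRELD2, a secreted ER stress protein, was lower by 0.28 on Transwell and 0.17 on the plate. FKBP2, an ER prolyl isomerase, was at -0.03 and -0.23, and UGGT1, the glucosyltransferase that senses misfolded glycoproteins, at -0.15 and -0.07. For Transwell minus plate, SIL1, the exchange factor of BiP, was at -0.38 in cholate and -0.54 in vehicle. PDIA5, an isomerase, stood at -0.39 and -0.25, whereas DNAJC10, an ER reductase, stood at 0.33 and 0.20.

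ER-associated degradation genes, 17 of 18 above the floor, had cholate medians of -0.05 on Transwell and -0.04 on the plate. UBE2J1, a ubiquitin-conjugating enzyme of the ER, was at -0.09 and -0.35, DERL2 at -0.08 and -0.27, and VCP, the ATPase that pulls substrates out, at -0.12 and -0.15. EDEM3, which trims mannose from glycoproteins, was higher on Transwell by 0.53 in cholate and 0.55 in vehicle. DERL2 and DERL1, members of the export channel, were higher by 0.47 and 0.27 in cholate and by 0.28 and 0.22 in vehicle. The list's medians for Transwell minus plate were only 0.01 in cholate and 0.03 in vehicle. Of the 17 genes 8 were higher and 6 lower on Transwell in both treatments, beside 39.5% and 33.2% of all genes.

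Translocon, signal peptidase and secretory pathway genes, 17 of 19 above the floor, had cholate medians of -0.03 on Transwell and -0.13 on the plate, with 11 of the 17 lower on both supports and 0 higher on both, beside the same 34.7% and 26.1% of all genes. SPCS3, a signal peptidase subunit, was lower by 0.19 on Transwell and 0.38 on the plate and had the one limma unadjusted p under 0.05 for cholate in these 4 lists (0.0476, adjusted p 0.457). SEC23B, a COPII coat subunit, was at -0.04 and -0.37, and SEC61A1, the channel subunit, at -0.12 and -0.16. On Transwell minus plate, SEC61B, another channel subunit, was at 0.31 in cholate and 0.34 in vehicle, SSR4 at -0.34 and -0.13, and SEC23B at 0.39 and 0.06. Across these 4 lists 0 genes passed limma for cholate or support over all probe sets.

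The PERK and ATF4 branch showed larger values on the same arrays. Of its 17 genes, each of them measured, 2 stood 1.5-fold or more above vehicle on Transwell and 7 on the plate, and 0 were 1.5-fold lower, against 0.357% and 1.49% of all genes for higher. The list's median was 0.16 on Transwell and 0.27 on the plate. The plate median was 0.56 when all probe sets of a gene were averaged. CHAC1, which breaks down glutathione, was higher by 0.59 and 1.16, ATF3 by 0.55 and 1.09, and DDIT4, an inhibitor of mTORC1, by 0.29 and 1.19. The list did not rise as a whole. At 1.2-fold on the plate 9 genes were higher and 3 lower, where 23.2% of all genes were that far apart in either direction. The 3 were PSAT1 at -0.46, VLDLR at -0.30 and NUPR1 at -0.26. In limma 0 of the 17 genes passed after adjustment. In the direction of higher 7 had a limma unadjusted p under 0.05. So did 384 of the 12900 genes above the floor and 6.31% of all probe sets. For Transwell minus plate the list's median was -0.55 in cholate and -0.56 in vehicle, with DDIT3, which encodes CHOP, at -1.34 and -1.32. In cholate 12 genes of the list were at least 1.2-fold lower on Transwell and 3 higher, beside 15.4% and 20.0% of all genes.

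Cytosolic heat shock genes, 13 of 16 above the floor, had cholate medians of 0.01 on Transwell and -0.03 on the plate. HSPA1A and HSPA1B, also on the list, were not among the genes measured. Of the 13 genes 0 stood 1.5-fold or more above vehicle on Transwell and 3 on the plate, beside 0.357% and 1.49% of all genes. HSPA1L stood at 0.57 on Transwell and 1.22 on the plate, DNAJB1, a cytosolic J-domain protein, at 0.28 and 0.89, and HSPA6 at 0.34 and 0.72. HSPA6 read 4.52 in vehicle on Transwell, below the floor, and passed the floor only through its plate cholate array, the other 3 arrays averaging 4.76, so its place in the count of 3 is no support; without it the counts were 0 and 2 of 12. On Transwell minus plate HSPA6 was at -0.74 in cholate and -0.36 in vehicle, DNAJB1 at -0.66 and -0.05, and HSPE1, a mitochondrial co-chaperonin on this list, at 0.28 and 0.38. The sign of the cholate median depended on the scaling between arrays for the sensors and the heat shock genes, and, on Transwell, for the other ER chaperones. The difference between lists was not tested.

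**Figure D3:**
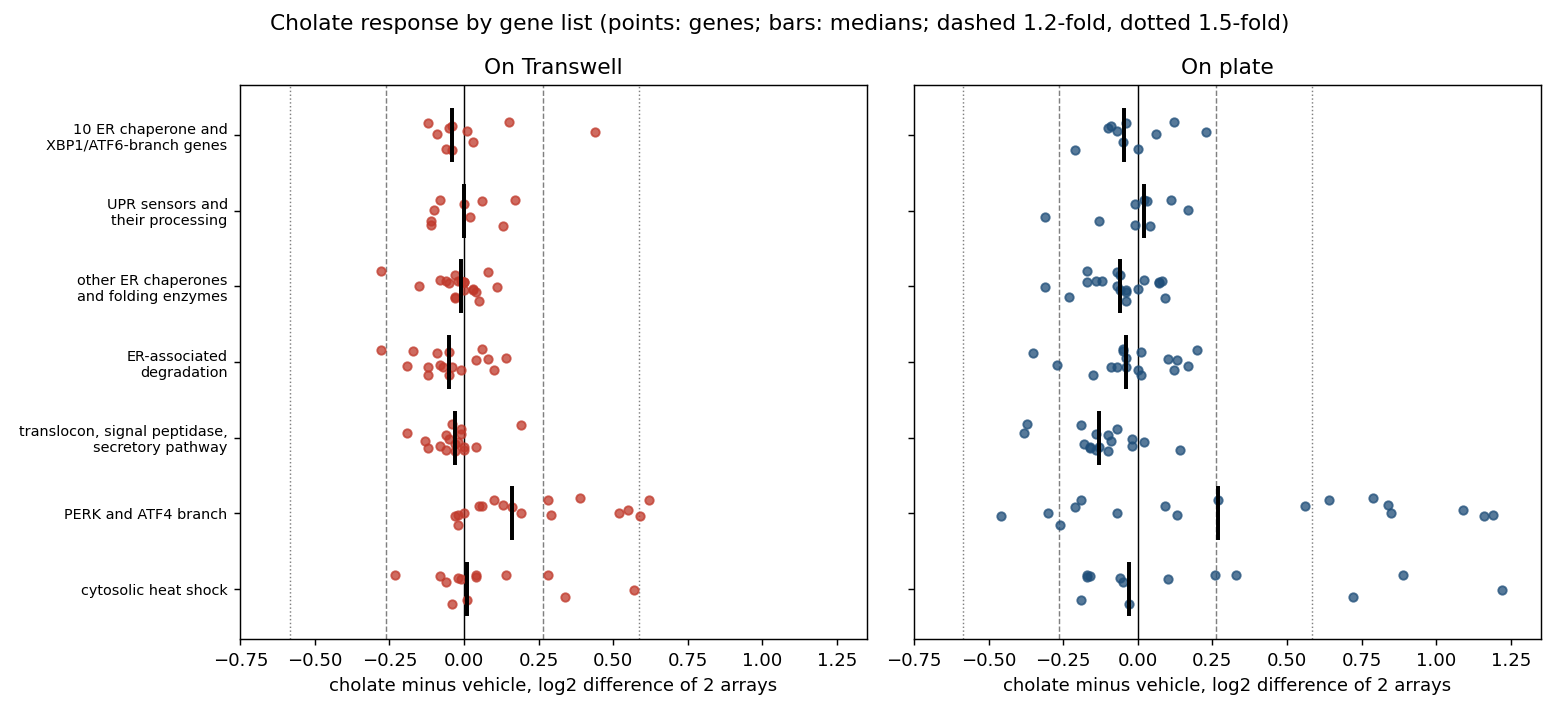
Cholate minus vehicle (x axis, log2 difference of 2 arrays) on Transwell (left) and on the plate (right) for the genes of each list above the floor (points, spread vertically for legibility), with the list median as a bar. The medians of the other 4 lists of ER genes lie between -0.13 and 0.02, while the PERK and ATF4 branch extends to 0.62 on Transwell and 1.19 on the plate.

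DNAJB9 had the widest range of the set, and the genes whose profiles over the 4 arrays lay closest to it were sought among 12899 genes, by the root mean square difference of values centred on each gene's mean. They were FBP1, the gluconeogenic fructose bisphosphatase (0.046), the matrix protein gene CCDC80 (0.057), CTH, which encodes cystathionine gamma-lyase (0.06), the stress gene GADD45B (0.07) and COQ10B, a coenzyme Q binding protein gene (0.073). CTH is also in the PERK and ATF4 list and was higher in cholate by 0.28 on Transwell and 0.27 on the plate. The Transwell vehicle value of CCDC80, 4.65, lay under the floor. Within the set XBP1 was nearest, at 0.15 and rank 132 of 12899, and HSPA5 followed at 0.25 and rank 1747. SDF2L1 was the farthest at 0.44. With 4 arrays many genes share such a shape, and this is a description alone.

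**Figure D4:**
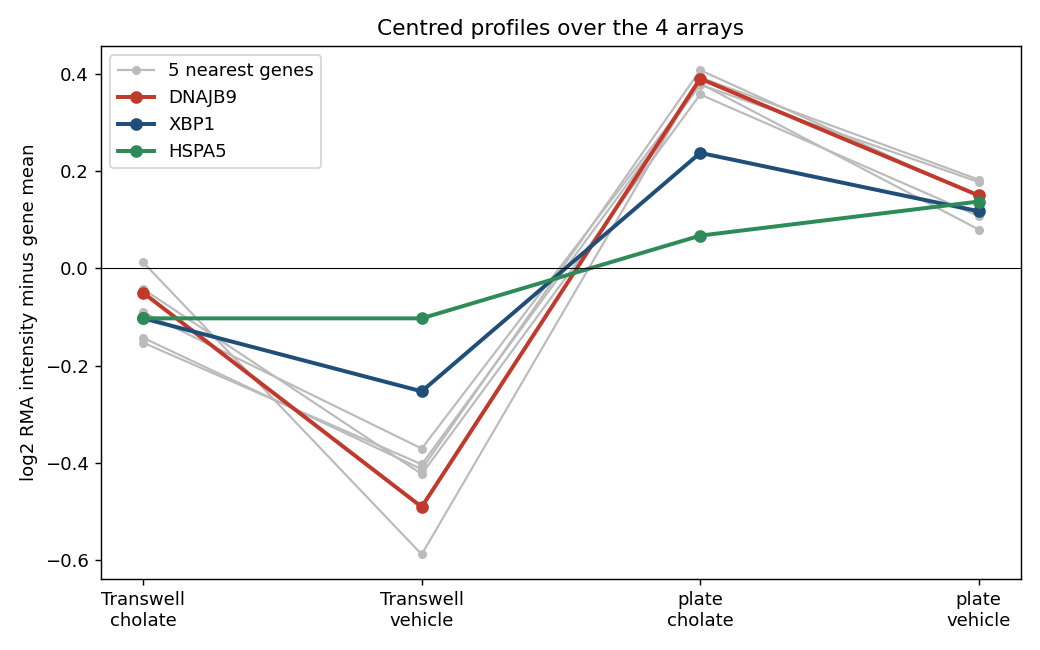
Log2 RMA intensity minus the gene's mean (y axis) on the 4 arrays (x axis) for DNAJB9, XBP1, HSPA5 and the 5 genes closest to DNAJB9 (grey); lines join the arrays of a gene and stand for no order. The Transwell vehicle array is lowest for DNAJB9 and XBP1, whereas HSPA5 reads 12.15 on both Transwell arrays.

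Of the whole series, the 4 arrays correlated at r of 0.977 to 0.993 across probe sets above the floor. The Transwell arrays were the closest pair, at 0.993, and plate cholate correlated at 0.977 to 0.983 with the other arrays. All 11 measured of 12 intestinal epithelial markers, VIL1 and CDH1 among them, were above the floor. Among markers of other cells, 2 of 6 for plasma and secretory cells (SDC1 and LYZ), 3 of 4 for fibroblasts, 1 of 3 measured for leukocytes and 1 of 3 for endothelium were above it. Of all 18417 genes 12900 were above the floor, so passing it alone marks no cell type. The plasma cell genes JCHAIN and MZB1, which mark cells rich in XBP1, lay under it. The median of the plasma and secretory list was 4.71 in cholate and 4.70 in vehicle on Transwell, and 4.81 in cholate and 4.69 in vehicle on the plate.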

How the data were processed

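Each probe set has 1 log2 intensity per array, made by the authors with RMA per the submitters' processing notes, with version and probe set build not given in the sources. RMA brings the arrays' distributions close together and so hides a shift common to most RNAs. Small offsets remained, as array medians ran from 5.64 on Transwell vehicle to 5.73 on plate cholate. Centring each array on its median moved the median plate cholate difference over genes above the floor from -0.03 to -0.1. The number of arrays limits the precision. Probe sets were named from the platform annotation: of 33297, 19460 had 1 symbol, 19429 of them found in RefSeq (GRCh38.p14), and 1754 had several and were not used for genes. Each gene was read from its probe set of highest mean. The floor was the 40th percentile of the mean over the 4 arrays, which 19978 probe sets and 12900 genes passed.

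Differences between 2 arrays are log2 differences with no replicate and no p-value. The test across all 4 arrays was limma 3.58.1 in R 4.3.3 (lmFit and eBayes, support plus treatment, 2-sided, Benjamini-Hochberg over 19978 probe sets), with 1 residual degree of freedom and a prior of 2.83. It was also run on simulated data, with changes larger than any difference of the 10 genes. That run is no check of differences of their size. Named are all 10 genes, up to 3 per list for cholate and 3 for support by mean absolute difference, and the 5 nearest profiles. The 3 genes of the PERK and ATF4 list that were 1.2-fold lower on the plate are named too. The genes and lists were chosen with earlier results of these data known. Alternatives were median centring, quantile and cyclic loess normalization, probe set averaging, floors, folds and priors.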

Additional observations from a re-analysis of the deposited data

How the results depend on the processing

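With 1 array per group, no setting supplies the missing spread between cultures. The median differences of the 10 genes kept their sign and moved by less than the limma SE under median centring, quantile or cyclic loess normalization and averaged probe sets. That SE, 0.09, is larger than the cholate medians themselves, so it is a loose bound for them. The plate cholate median was -0.12 under median centring and -0.02 under cyclic loess. On Transwell these were -0.09 and -0.02, so the size of the cholate medians depended on the scaling. No difference of 1.2-fold or more between 2 arrays reversed for a single gene. Counting at 1.2-fold in place of 1.5-fold gave 1 gene for cholate on Transwell, 4 genes for Transwell minus plate in cholate and 3 in vehicle. At 2-fold the count for vehicle was 0. In limma, the support effect gave 1 gene past an adjusted p of 0.05 with the floor at the 60th percentile and 1 with probe sets of a single symbol, in each case DNAJB9, at -0.54 in both and adjusted p of 0.0472 and 0.0277. These fits called 3.41% and 5.74% of all probe sets lower, and a single gene among 10 is little against that share. Over the 8 alternatives its adjusted p for support ran from 0.0277 to 0.218, and for cholate from 0.291 to 0.556. Those of XBP1 ran from 0.0566 to 0.256 for support and from 0.467 to 0.709 for cholate. No other gene of the set passed for either term. Replicate numbers are not in the labels, so no fit with a replicate block was made beyond the additive fit, which already sets cholate against vehicle within each support.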
